A study of Mus musculus with 12 samples.

Results

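The miR-148/miR-152 family in mouse comprises miR-148a, miR-148b and miR-152 (mmu-miR-148a, mmu-miR-148b and mmu-miR-152 on the array), and its 3 mature miRNAs were followed in mouse embryonic fibroblasts with and without XBP1 during endoplasmic reticulum stress. They were found by their systematic names on the array and are 3 of the 611 mouse miRNAs it measures. The cells were of the C57BL/6 background and carried either the XBP1WT or the XBP1KO genotype; how the deletion was made and whether a genotype is 1 line or several were not given in the sources used here. Cells of each genotype were left untreated or were exposed to tunicamycin at 2 ug/mL, for either 12 h or 24 h, and each of these 6 groups had 2 arrays, described by the submitters as independent experiments. All groups grew in the same serum-supplemented medium. Small RNA in total RNA was labelled with the dye Cy3 and read on 1-colour Agilent arrays, so 12 arrays were measured and their number limits the precision of every value. The arrays measure no mRNA, so loss of Xbp1 was not checked here.

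A miRNA guides an Argonaute protein to partly complementary sites in messenger RNAs, which are then repressed, and the seed near its 5′ end supplies most of the pairing. Members of a family share the seed and are read as repressing overlapping sets of messages. The family is known for repressing the DNA methyltransferase Dnmt1, and miR-148a for repressing the low-density lipoprotein receptor in liver. XBP1 is an activator of chaperone and secretory genes whose active form is made once the stress sensor IRE1 has spliced its message. Tunicamycin stops the first step of N-linked glycosylation and so loads the endoplasmic reticulum with unfolded protein. The study asked which miRNAs respond to tunicamycin in a way that depends on XBP1.

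The mature sequences are given because the shared seed defines the family and because the members differ at few bases, which bears on how well probes tell them apart. They are from RefSeq on GRCm38.p6, where all 3 members matched by name, and are written 5′ to 3′ with the seed, bases 2 to 8, in capitals.
miR-148a: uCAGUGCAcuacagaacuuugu
miR-148b: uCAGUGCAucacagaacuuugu
miR-152: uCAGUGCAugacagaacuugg
miR-148a lies at chr6:51269829-51269850 on the minus strand, within the span of the predicted gene Gm38821. miR-148b lies at chr15:103285185-103285206 on the plus strand, within the span of Copz1. miR-152 lies at chr11:96850439-96850459 on the plus strand, within the span of Copz2, and its hairpin begins 517 bases from the lower coordinate of that gene. Copz1 and Copz2 encode the zeta subunits of coatomer, the coat of vesicles that return proteins from the Golgi to the endoplasmic reticulum. Counting from 1 at the 5′ end and giving the base of the first-named miRNA first, miR-148a and miR-148b differ by C9U and U10C and share 20 of 22 bases. miR-148a and miR-152 differ by C9U, U10G and U20G over the 21 bases compared, and miR-148b and miR-152 by C10G and U20G. None of these positions is in the seed. How far each array probe binds the other members was not tested.

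In the values below, the signals of a miRNA's probes were added up and scaled to a common 75th percentile, taken over the 95 mouse miRNAs that were detected on each of the 12 arrays. Scaled signals are in arbitrary units, and values under a floor of 10.04 were set to it before log2 was taken. Signals are compared between arrays for 1 miRNA and never between miRNAs, since probes differ in brightness. Differences are log2 values from a limma model of all 12 arrays, with p-values adjusted by the Benjamini-Hochberg method over the 256 mouse miRNAs that passed the detection filter (detected on the 2 arrays of some group), and a call needs an adjusted p under 0.05. All 3 members were among the 256. Unscaled, the total signal of an array ran from 15850 to 187401, lowest on replicate 1 of the wild type at 24 h and highest on the untreated knockout arrays, and 120 to 222 mouse miRNAs were detected per array. Both groups of untreated arrays were on 1 slide and all tunicamycin arrays on another, and in every comparison with untreated cells the slide cannot be told apart from the drug; the genotypes shared slides and scans. The list of fibroblast and mesenchymal markers includes miR-152, itself a member of the family. Of these markers, 10 of 10 were detected on some array and 6 on all, with a summed scaled signal of 12100 to 27000. Epithelial and blood markers (7 and 6) and the liver marker miR-122 were not detected on any array. Among the others, miR-126-3p, miR-206, miR-9 and miR-128 were detected on some arrays, with summed signals of at most 26.0 for endothelial, 104 for muscle and 33.3 for neural markers. Their part in the results was not tested.

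miR-152 was high in untreated cells of both genotypes and fell with tunicamycin in both, and at 24 h it read higher in the knockout than in the wild type, where it was not well above background. In untreated wild-type cells its scaled signal was 63.4 and 68.9, and in untreated knockout cells 49.7 and 55.7. At 12 h the wild type read 14.3 and 12.8 and the knockout 9.17 and 9.74. At 24 h the wild type read 8.69 and 10.65 and the knockout 19.0 and 24.8. Every treated array was below every untreated one, and the 2 knockout arrays at 24 h were the highest of the 8 treated arrays. miR-152 was detected on the 4 untreated arrays and the 2 knockout arrays at 24 h, and was not well above background on the other 6, where a fall can only be bounded. For such groups a fold is given as at least the ratio of the untreated mean to a limit. On each array the limit is the highest of the measured signal, the floor and the array's detection limit. The detection limit is taken as the scaled signal of the dimmest miRNA called detected on that array. Brighter miRNAs can still be missed: on wild-type replicate 1 at 24 h that signal was 22.6, but miR-29c at 25.6 was not detected. The folds are therefore bounds only under this choice of limit. Both knockout arrays at 12 h and replicate 1 of the wild type at 24 h were under the floor.

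miR-148a was called detected by the software on all 12 arrays, read lower on the knockout than on the wild-type arrays at each time, and fell at 12 h in the knockout; none of the tests of a genotype difference passed for it (limma adjusted p = 0.137 untreated, 0.313 for the 12 h and 1 for the 24 h responses). Its scaled signal was 121 and 138 in untreated wild-type cells, 91.2 and 90.6 after 12 h, and 122 and 138 after 24 h. In knockout cells it was 60.3 and 74.5 untreated, 22.9 and 18.8 after 12 h, and 36.2 and 75.9 after 24 h. Every knockout array was below every wild-type array. At 12 h in the knockout it was close to background, with 0 of 20 spots of one probe and 5 of 20 of the other above it. Ordered by group mean, the signals were 129.98 ± 11.9 in wild-type cells at 24 h, 129.54 ± 11.5 in untreated wild-type cells, 90.9 ± 0.425 in wild-type cells at 12 h, 67.4 ± 10.0 in untreated knockout cells, 56.0 ± 28.1 in knockout cells at 24 h and 20.9 ± 2.88 in knockout cells at 12 h (SD, n = 2). The first pair in that order overlapped, as did untreated and 24 h knockout cells; the other neighbours did not overlap. The knockout arrays at 24 h had the widest spread of any group for this miRNA.

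miR-148b was dim throughout. Its scaled signal was 10.2 and 11.1 in untreated wild-type cells and 13.0 and 15.2 in untreated knockout cells. At 12 h the wild type read 6.67 and 5.56 and the knockout 7.0001 and 4.15, all under the floor. At 24 h the wild type read 10.9 and 3.88 and the knockout 10.4 and 8.01. It was detected on the 4 untreated arrays and on replicate 1 of the knockout at 24 h, so most of its treated values are limits rather than levels.

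**Figure D1:**
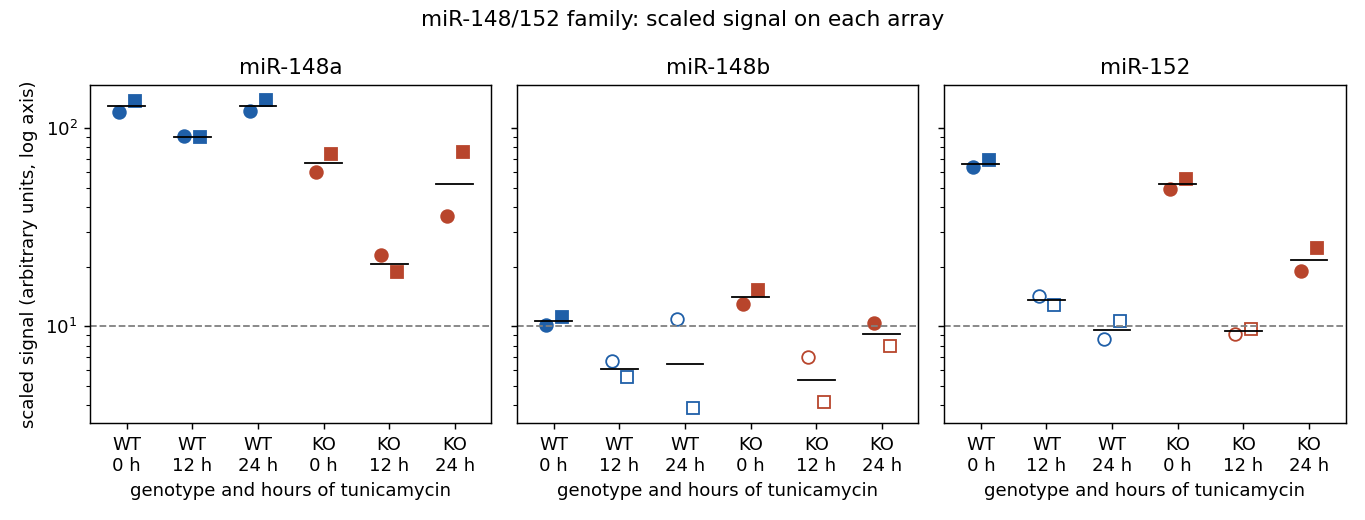
Scaled signal (arbitrary units, log axis) of each family member on each of the 12 arrays, by genotype and hours of tunicamycin; circles are replicate 1, squares replicate 2, filled where detected and open where not, with a bar at the geometric mean and a dashed line at the floor of 10.04. All miR-148a knockout points lie below the wild-type points, and the miR-152 points at 24 h are 8.69 and 10.65 for the wild type against 19.0 and 24.8 for the knockout.

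The first comparison asked what 12 h of tunicamycin did in each genotype. In wild-type cells 1 of the 3 members fell, beside 25.4% of all tested mouse miRNAs called lower. miR-152 fell by 2.29 on the log2 scale (SE 0.16, limma adjusted p = 8.6e-05), which is at least 4.43-fold. miR-148a differed by -0.51 (SE 0.33, adjusted p = 0.253, limma), with a 95% interval of -1.30 to 0.28. It was called with quantile normalization (-1.47) and with the percentile over all mouse miRNAs (-1.09). Those settings also shifted the median of all miRNAs, by -0.59 and -0.46, and relative to these shifts miR-148a stood at -0.88 and -0.62. Without either knockout array at 24 h, which enter only the estimate of the spread, its difference stayed at -0.51. Whether miR-148a was called depended on these arrays. miR-148b differed by -0.09 (SE 0.08, adjusted p = 0.406, limma), and no fold can be given because its untreated signal was below the detection limits of the treated arrays. For miR-148b in the wild type the scaled gene totals called a fall (-2.82, limma adjusted p = 0.00036) and normexp a rise (1.40, limma adjusted p = 0.00018). The treated wild-type arrays had no deposited gene total for miR-148b and were set to the floor. This fall therefore runs from the untreated totals to the floor, and its size was not measured. The median over the members was -0.51, beside -0.09 over all 256 and -0.42 over the 95 detected on all arrays. With only those 95 fitted, 33 were called lower.

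In knockout cells all 3 members fell at 12 h, beside 25.4% of tested miRNAs called lower. miR-148a fell by 1.69 (SE 0.33, limma adjusted p = 0.0054), between groups that did not overlap; since most of its spots at 12 h were not above background, the size of the fall is uncertain. miR-152 fell by 2.39 (SE 0.16, limma adjusted p = 4.6e-05), at least 5.09-fold. miR-148b fell by 0.49 (SE 0.08, limma adjusted p = 0.0021), at least 1.37-fold. The members' median was -1.69, beside 0.00 over all tested miRNAs and -0.44 over the 95 detected on all arrays. With only those 95 fitted, 38 were called lower.

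The SE of miR-148b and miR-152 counts groups that were set to the floor on both arrays, whose spread is 0 by construction. With normexp background correction in place of the software's subtraction, all 3 members turned positive at 12 h in both genotypes (0.31 to 1.40; called for miR-148b), while the median of all miRNAs shifted up by 1.32 in the wild type and 1.14 in the knockout. Relative to that shift, miR-152 stood at -0.66 and -0.74, miR-148a at -0.94 and -0.83, and miR-148b at 0.08 and 0.01. From the deposited gene totals, scaled, the fall of miR-148a in the knockout was -0.47 and was no longer called.

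After 24 h in wild-type cells, 1 of 3 members was lower, beside 14.8% of all tested miRNAs. miR-152 fell by 2.68 (SE 0.16, limma adjusted p = 6.2e-05), at least 4.26-fold. miR-148a stood at its untreated signal, with a difference of 0.00 (SE 0.33, adjusted p = 1, limma) and a 95% interval of -0.79 to 0.80. miR-148b differed by -0.03 (SE 0.08, adjusted p = 1, limma), with a called fall from the scaled gene totals (-2.82) and a called rise with normexp (1.37). The treated arrays again had no deposited gene total for miR-148b, so that fall also runs to the floor. The medians were -0.03 over the members and 0.00 over all 256.

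After 24 h in knockout cells 2 of 3 members were lower, beside 10.9% of all tested miRNAs. miR-152 fell by 1.28 (SE 0.16, limma adjusted p = 0.0023); the software called it detected on both treated arrays, but 1 of 20 spots of one probe and 6 of 20 of the other were above background there, so the size is uncertain. miR-148b fell by 0.46 (SE 0.08, limma adjusted p = 0.0084), but only 1 of its 2 treated arrays measured it. The call was lost with quantile normalization (-0.32, limma adjusted p = 0.584) and with the percentile over all mouse miRNAs (-0.34, limma adjusted p = 0.562), and normexp called a rise (1.38, limma adjusted p = 0.00021). miR-148a differed by -0.35 (SE 0.33, adjusted p = 0.691, limma), with a 95% interval of -1.15 to 0.44. Its 2 arrays disagreed: the limma difference was -0.89 without replicate 2 of that group (adjusted p = 0.0259) and 0.18 without replicate 1. The members' median was -0.46, beside 0.00 over all.

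At 24 h normexp also turned miR-152 positive, to 0.61 in the wild type and 0.69 in the knockout, not called in either, and relative to the shift of all miRNAs it stood at -0.55 and -0.60. miR-148a in the knockout was 0.73 with normexp (limma adjusted p = 0.0342). From the deposited gene totals, scaled, the knockout difference of miR-152 at 24 h was 1.69 (limma adjusted p = 3.1e-05) in place of -1.28, as described for the gene totals further on.

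**Figure D2:**
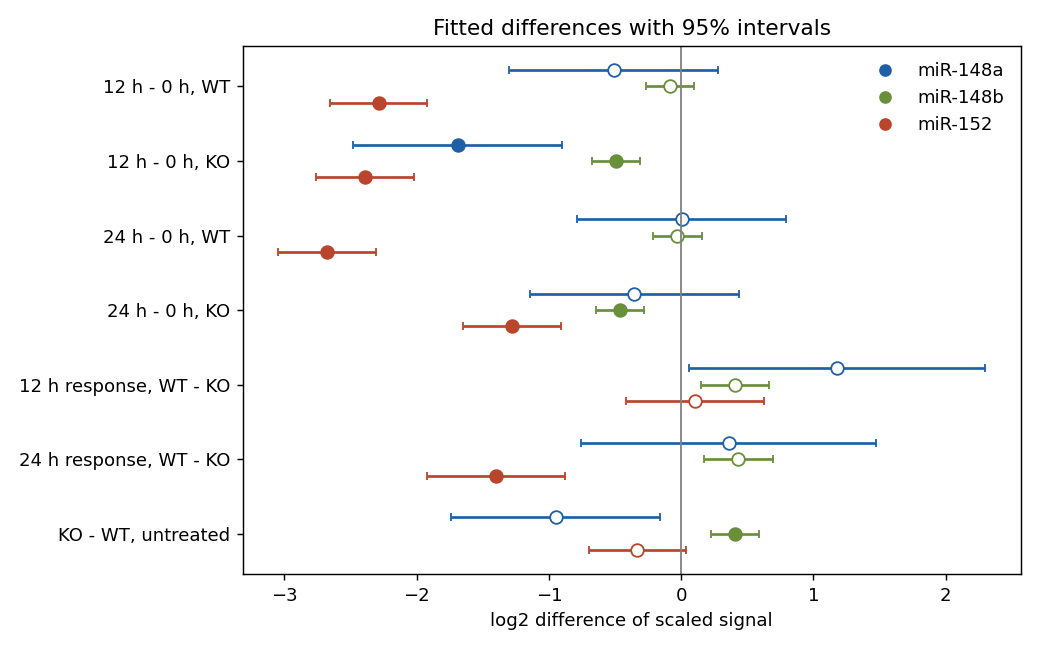
Fitted log2 differences of scaled signal for the 3 members in the 7 comparisons, with 95% intervals from the limma model; filled points have an adjusted p under 0.05. miR-152 lies at -2.29 and -2.39 at 12 h and at -2.68 and -1.28 at 24 h in wild-type and knockout cells, while miR-148a is called in 1 comparison, the knockout at 12 h.

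The question of XBP1 dependence was addressed by the difference of the responses, wild type minus knockout, within the same model; both responses and the comparison of untreated cells share the untreated arrays. At 12 h none of the 3 members was called by limma, beside 5.86% of all tested miRNAs in either direction; at an unadjusted p under 0.05, 37 of the 256 were found. miR-148a had the widest difference of the members, 1.18 (SE 0.47, adjusted p = 0.313, limma), with a 95% interval of 0.06 to 2.30. It was positive within both pairs of scans, joined by replicate number, at 0.98 and 1.38. Without either of the knockout arrays at 24 h, which enter the estimate of the spread but not the contrast, its adjusted p from limma was 0.027. The signs of the 3 differences were negative from the scaled gene totals (-0.12, -0.86 and -0.39 for miR-148a, miR-148b and miR-152). For miR-148b and miR-152 no array at 12 h had a deposited gene total, and all were set to the floor. Their values are therefore the untreated genotype differences from the same totals by construction and test no response. miR-148b differed by 0.41 (SE 0.11, adjusted p = 0.108, limma). Its arrays at 12 h were all set to the floor in both genotypes. The value is therefore the untreated genotype difference of 0.41 by construction and tests no response. miR-152 differed by 0.10 (SE 0.22, adjusted p = 1, limma; 95% interval -0.42 to 0.62). The members' median was 0.41, which is the value of miR-148b, beside 0.08 over all. For miR-152 no array at 12 h was well above background, and both knockout arrays were at the floor. Both of its responses are therefore limits, and the interval puts no bound on their difference.

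At 24 h 1 of the 3 members was called, miR-152, in the negative direction, beside 2.73% of tested miRNAs called in that direction. Its fall was larger in the wild type by 1.40 (SE 0.22, limma adjusted p = 0.0125), and the difference was -1.27 and -1.53 within the 2 pairs of scans. The wild-type end of this difference is a limit. Replicate 1 of the wild type at 24 h had the lowest total signal of all arrays, and its dimmest detected miRNA had a scaled signal of 22.6, above the 19.0 of knockout replicate 1; on replicate 2 the dimmest detected signal was 7.97. With the wild type at the limits used for the folds, the 2 responses were -2.09 and -1.28 and differed by -0.82, a value with no test. The part of signal strength in the difference was not tested.

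The call for miR-152 at 24 h was lost with no filter on dim miRNAs (-1.40, limma adjusted p = 0.0576), with values at the floor left out (-1.36, limma adjusted p = 0.109), without either knockout array at 12 h, and with normexp (-0.08). The knockout arrays at 12 h do not enter this contrast. Both were set to the floor, so they add a spread of 0 by construction to the estimate behind the call. miR-148a differed by 0.36 (SE 0.47, adjusted p = 1, limma) and miR-148b by 0.43 (SE 0.11, adjusted p = 0.0811, limma) at 24 h. For miR-148b, 1 of the 2 arrays at 24 h was at the floor in each genotype, so its value rests largely on the untreated arrays.

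Between 12 h and 24 h, set against each other on the same slide and scan, the readings of miR-152 differed by -0.51 in replicate 1 and -0.27 in replicate 2 of the wild type and by 0.92 and 1.31 in the knockout. No direction can be read for the wild type: all 4 of its values were not well above background, and the dimmest detected signal of replicate 1 at 24 h, 22.6, was above its 12 h reading of 14.3. The knockout values at 12 h were at the floor on both arrays, so its differences run from the floor to a detected signal. miR-148a went up in both genotypes, by 0.42 and 0.61 in wild-type and by 0.66 and 2.01 in knockout cells, where it was close to background at 12 h. The median of the 95 miRNAs detected on all arrays also went up between these times. Against untreated cells it was -0.42 at 12 h and -0.08 at 24 h in the wild type, and -0.44 and -0.05 in the knockout. Within scans, knockout minus wild type for miR-148a was -1.99 and -2.27 at 12 h and -1.75 and -0.87 at 24 h. These values carry no test.

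In untreated cells, where both genotypes share a slide, 1 of 3 members was called between the genotypes, higher in the knockout, beside 5.08% of tested miRNAs called higher. That member was miR-148b, at 0.41 (SE 0.08, limma adjusted p = 0.0146), a 1.32-fold difference between signals close to the floor. It was not called when the software's probe totals were summed (0.41, limma adjusted p = 0.116) or without wild-type untreated replicate 1 (limma adjusted p = 0.086), and it was -0.86 from the scaled gene totals and -0.48 with normexp. miR-148a was lower in the knockout on every array, and its difference was -0.95 (SE 0.33, adjusted p = 0.137, limma), with a 95% interval of -1.74 to -0.16 and within-scan values of -1.01 and -0.89. That difference was called with quantile normalization (-1.17) and without either knockout array at 24 h (limma adjusted p = 0.0092). miR-152 differed by -0.33 (SE 0.16, adjusted p = 0.316, limma). The members' median was -0.33, beside 0.00 over all and -0.13 over the 95 detected on all arrays.

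Each member was read by 2 probes with 10 spots apiece on an array, and the probes show what lies behind the summed signal. Both probes of miR-152 were above background on 40 of 40 spots of the untreated arrays, and on 1 and 6 of 80 spots of the treated arrays. Both probes of miR-148a were above background on 40 of 40 untreated spots and on 48 and 65 of 80 treated spots over both genotypes. For miR-148b, probe 1 was above background on 0 of 120 spots over all arrays, and probe 2 on 33 of 40 untreated and 2 of 80 treated spots. The miR-148b signal thus came from 1 of its 2 probes, while both probes of miR-152 fell with treatment. In the knockout at 12 h, the group behind the call of miR-148a, its probes were above background on 0 of 20 and 5 of 20 spots, against 20 of 20 each untreated.

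**Figure D3:**
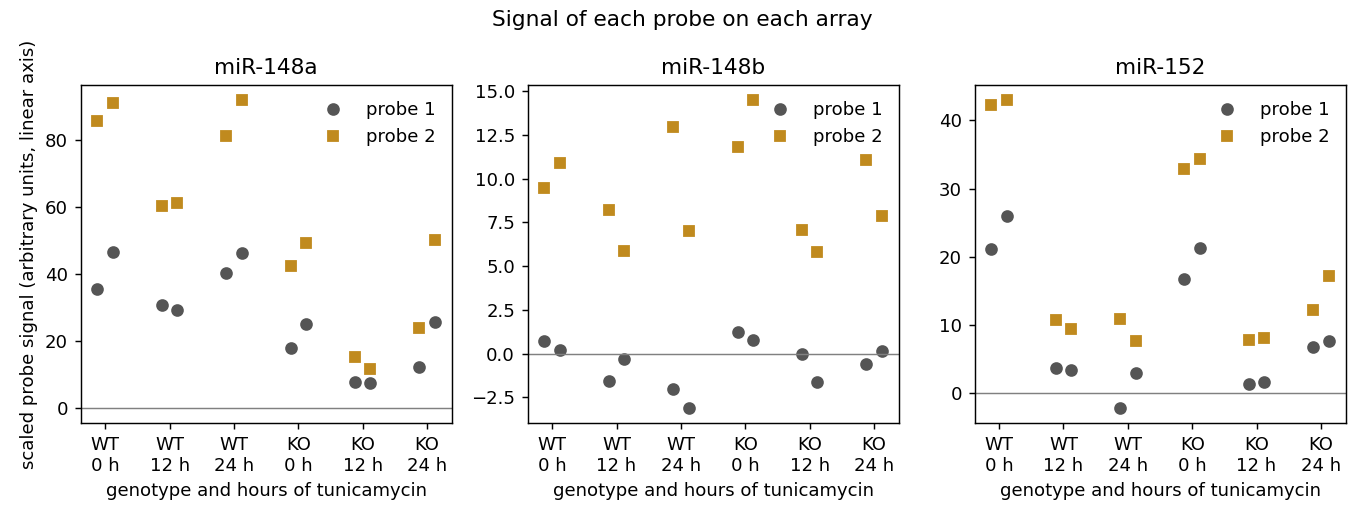
Scaled signal (arbitrary units, linear axis) of the 2 probes of each family member on each array, by genotype and hours of tunicamycin, with replicate 1 drawn left of replicate 2. Both miR-152 probes drop on every treated array, and miR-148b probe 1 stays between -3.10 and 1.21.

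The scanner software also gives a total per miRNA, and the log2 values deposited for the series are these gene totals. For the members the gene total was not always the sum of the probe totals. For miR-152 it equalled that sum on the 4 untreated arrays, but on the knockout arrays at 24 h it was 83.1 and 106, which is 9.46 and 8.37 times the sums of 8.78 and 12.6. For miR-148b it was 12.8 and 13.4 times the sum in untreated wild-type cells, 5.53 and 5.84 times in untreated knockout cells and 4.52 times on knockout replicate 1 at 24 h. For miR-148a it was 2.86 and 2.47 times the sum in the knockout at 12 h and equal elsewhere. After scaling, miR-152 in the knockout at 24 h was thus above its untreated value by the gene totals (1.69) and below it by the spots (-1.28). Why the totals differ was not tested.

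**Figure D4:**
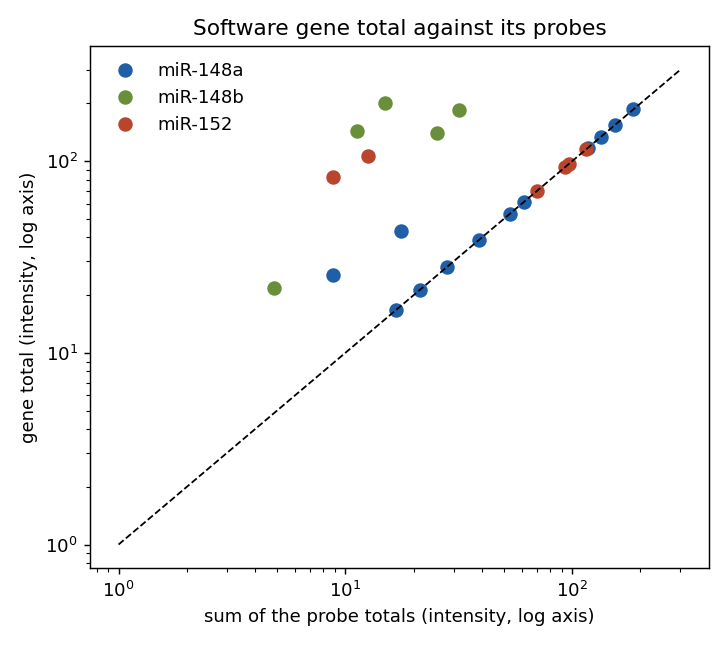
Gene total from the scanner software against the sum of the probe totals (intensity before scaling, log axes), 1 point for each member and array on which it was detected; the dashed line marks equality. The miR-152 points off the line are the 2 knockout arrays at 24 h, at 83.1 and 106 against 8.78 and 12.6, and all miR-148b points lie above it.

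The other arm of the miR-148a hairpin, miR-148a*, was not detected on any of the 12 arrays. The other arms of the miR-148b and miR-152 hairpins were not analysed here.

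The profiles of the members over the 12 arrays were not alike. Pearson's r of log2 scaled signal was 0.09 between miR-148a and miR-148b, 0.36 between miR-148a and miR-152 and 0.59 between miR-148b and miR-152, as a description over arrays that share slides, scaling and the floor. Of 195 other mouse miRNAs above the floor on at least 6 arrays, those closest to miR-148a were miR-22 (r = 0.93), miR-30e (0.83) and let-7c (0.83). Closest to miR-148b were miR-222 (0.93), miR-195 (0.85) and miR-210 (0.85). Closest to miR-152 were miR-26a (0.97), miR-374 (0.97) and miR-146b (0.93).

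The miR-130/miR-301 family overlaps the seed of miR-148 and miR-152 in the bases AGUGCA, displaced by 1 position, and so was read beside it. In miR-130a, at chr2:84741116-84741137 on the minus strand of GRCm38.p6, these bases are in capitals and begin at base 2.
miR-130a: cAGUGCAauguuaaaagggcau
All 5 of its listed members (miR-130a, miR-130b, miR-301a, miR-301b and miR-721) were tested. At 12 h 1 of 5 was lower in the wild type and 2 of 5 in the knockout, beside 25.4% of all tested miRNAs in each, and at 24 h 1 of 5 in each, beside 14.8% and 10.9%; none was called higher, between untreated genotypes or for a difference of responses. miR-130a had scaled signals of 891 and 855 in untreated wild-type cells, 399 and 397 at 12 h, and 608 and 463 at 24 h. In knockout cells it had 1170 and 1216 untreated, 458 and 391 at 12 h, and 613 and 794 at 24 h. It was lower on every treated array than on any untreated array of its genotype, and it fell by 1.13 (SE 0.17, limma adjusted p = 0.0017) in the wild type at 12 h. In the knockout at 12 h miR-130a was at -1.50 and miR-301a at -0.90. With normexp, where the family's differences turned positive, miR-130a was at -0.96 and -1.35 at 12 h in wild-type and knockout cells; it was negative in all 4 treated comparisons under each of 5 alternatives of background, scaling or signal, though not called at 24 h with the percentile over all mouse miRNAs. miR-301a in the knockout at 12 h was -0.20 with normexp and not called. The list's median was -0.95 and -0.90 at 12 h and -0.16 and -0.77 at 24 h, in wild-type and knockout cells.

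The miR-29 family represses DNA methyltransferases, a target class it shares with miR-148 and miR-152. Of miR-29a, miR-29b and miR-29c, miR-29a was called lower at 12 h, by -0.50 in the wild type and -0.30 in the knockout, and the other two were not called in either genotype; 1 of 3 stands beside 25.4% of all tested miRNAs called lower in each. With normexp miR-29a was -0.44 in the wild type and -0.30, not called, in the knockout. None of the 3 was called at 24 h, between untreated genotypes or for a difference of responses. Their median was -0.50 and -0.30 at 12 h and 0.16 and 0.15 at 24 h.

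miR-152 lies close to the start of Copz2, so the promoter of that gene is given, 300 bases around its start, at chr11:96849626-96849925 on the plus strand of GRCm38.p6 from RefSeq. It was searched on both strands for 2 elements tied to the unfolded protein response, UPRE as TGACGTGG and ERSE as CCAAT and CCACG with 9 bases between them, and for the core ACGTG, which lies within UPRE. Capitals mark the core.
Copz2: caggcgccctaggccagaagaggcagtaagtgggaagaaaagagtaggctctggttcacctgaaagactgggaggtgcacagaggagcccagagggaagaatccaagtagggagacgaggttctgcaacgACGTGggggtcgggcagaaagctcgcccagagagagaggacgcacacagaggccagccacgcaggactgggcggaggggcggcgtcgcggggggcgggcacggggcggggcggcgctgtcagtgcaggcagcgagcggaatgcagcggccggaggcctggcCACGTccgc
The core was found at bases 131 to 135 on the plus strand and 292 to 296 on the minus strand, while UPRE and ERSE were not in this window. The Copz1 promoter held 1 core and neither longer element. Of 32851 RefSeq promoters of the same length, 19.6% held the core, 0.676% UPRE and 0.119% ERSE. A match in letters is a description and says nothing of binding.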

How the data were processed

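Spot intensity values were deposited by the authors as scanner output of Agilent Feature Extraction 10.7.1.1, named in the submitters' processing notes; the log2 values deposited by the authors for the series equal log2 of the software's gene total. The background-subtracted processed signal was averaged over a probe's spots after control and outlier spots were left out, summed over the probes of a miRNA, scaled to the 75th percentile of the 95 mouse miRNAs detected on all arrays, and set to a floor at the 5th percentile of detected signals (10.04). No spot was saturated. The model was limma 3.58.1 in R 4.3.3, with 1 mean per group over all 12 arrays, a mean-variance trend, 6 residual degrees of freedom and Benjamini-Hochberg adjustment; 7 comparisons were made. The normexp alternative, planned on mean spot signals, used median spot and median background signals with an offset of 50. The model was tested on simulated data with normal noise and no floor, so that test says nothing of groups set to the floor.

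Members, lists and markers were chosen with earlier results of these data known. The members are those of the stated names; for the other lists the text gives counts, medians and the members with the highest mean signal or a call, and for likeness the 3 miRNAs with the highest r. The alternatives were normexp, quantile normalization, the percentile over all mouse miRNAs, the deposited values with and without scaling, outlier spots kept, filters on dim miRNAs, floored values left out, the replicate and the scan as a block, no trend, each array left out, and, added after seeing the data, the software's probe totals summed.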

Additional observations from a re-analysis of the deposited data

Results flagged for a closer look

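For miR-152 the response to 24 h of tunicamycin differed between genotypes, by -1.40 (wild type minus knockout, limma interaction, adjusted p = 0.0125, in that direction within both pairs of scans). The wild-type end is a limit, and at the limits used for the folds the difference was -0.82, with no test. The call was lost with no filter on dim miRNAs (limma adjusted p = 0.0576), with floored values left out (limma adjusted p = 0.109), without either knockout array at 12 h and with normexp (-0.08). The knockout arrays at 12 h enter only the estimate of the spread, to which they add 0 by construction at the floor. From 12 h to 24 h the readings of miR-152 differed by -0.51 and -0.27 in the wild-type replicates and by 0.92 and 1.31 in the knockout replicates. This second difference was not tested and its wild-type direction cannot be read: all the wild-type values were not well above background, and both knockout arrays at 12 h were at the floor.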

How the results depend on the processing

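All values are log2 differences in the order wild type, then knockout where both are given. Normexp gave, at 12 h, 0.37 and 0.31 for miR-148a, 1.40 and 1.15 (both called) for miR-148b, and 0.65 and 0.40 for miR-152. At 24 h normexp gave 1.37 and 1.38 (both called) for miR-148b, 0.61 and 0.69 for miR-152, and 0.73 (called) for miR-148a in the knockout, so that called falls of miR-148b in the knockout became called rises, on dim signals that the offset raises by construction. Its difference of the 24 h responses was -0.16 for miR-148a, -0.01 for miR-148b and -0.08 for miR-152, and its untreated genotype difference was -0.48 for miR-148b. It shifted the median over the tested miRNAs by 1.32 and 1.14 at 12 h, 1.17 and 1.30 at 24 h, and -0.56 between untreated genotypes. Quantile normalization gave -1.47 (called) for miR-148a at 12 h and -0.08 at 24 h in the wild type, and -0.32 (not called) for miR-148b at 24 h in the knockout. It gave -0.20 for miR-152 in the difference at 12 h, -0.02 for miR-148a in that at 24 h, and, between untreated genotypes, -1.17 (called) for miR-148a and 0.55 (not called) for miR-148b. The percentile over all mouse miRNAs gave -1.09 (called) for miR-148a at 12 h and 0.01 for miR-148b at 24 h in the wild type, -0.34 (not called) for miR-148b at 24 h in the knockout, and 0.69 (not called) for miR-148b and 0.06 for miR-152 between untreated genotypes. The deposited values, scaled, gave -2.82 for miR-148b at both 12 h and 24 h (called) and -0.27 for miR-148a at 24 h in the wild type, and -0.47 (not called) for miR-148a at 12 h and 1.69 (called) for miR-152 at 24 h in the knockout. They gave differences of the 12 h responses of -0.12, -0.86 and -0.39 for miR-148a, miR-148b and miR-152, -1.38 for miR-148b at 24 h, and -0.86 for it between untreated genotypes. Arrays on which a miRNA was not detected have no deposited value and were set to the floor in this setting. The falls of miR-148b in the wild type thus run to the floor. The 12 h differences of miR-148b and miR-152 are their untreated genotype differences by construction. Unscaled, the deposited values gave -2.03 (called) and -2.12 (called) for miR-148a at 12 h and 24 h in the wild type, and -2.40 (called) for miR-148a and -0.17 (not called) for miR-152 at 24 h in the knockout. Unscaled differences were -0.01 for miR-148a in the 12 h responses and -0.08 for miR-148b and 0.39 for miR-152 between untreated genotypes; without scaling the median of all miRNAs fell by 1.22 to 1.75 with tunicamycin. The difference of the 24 h responses of miR-152 was -1.40 (not called) with no filter on dim miRNAs and -1.36 (not called) with floored values left out, and miR-148b between untreated genotypes was 0.41 (not called) from summed probe totals. Apart from what the floor, the missing filter and the normexp offset do by construction, the cause of these changes was not tested. Keeping outlier spots, the scan as a random block and no trend changed none of the 21 calls or directions of the members.

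Leaving out each array in turn gave -0.60 to -0.42 for miR-148a at 12 h in the wild type, where a call appeared without either knockout array at 24 h. At 24 h it gave -0.09 to 0.10 for miR-148a and -0.09 to 0.03 for miR-148b in the wild type, and -0.89 to 0.18 for miR-148a in the knockout. For the difference of the 12 h responses it gave 1.03 to 1.33 for miR-148a and 0.29 to 0.52 for miR-148b. At 24 h these differences were -0.17 to 0.89, 0.32 to 0.55 and -1.59 to -1.21 for miR-148a, miR-148b and miR-152. Between untreated genotypes it gave -1.10 to -0.80 for miR-148a and 0.29 to 0.52 for miR-148b. Replicate numbers are shared by the groups but make only 2 pairs, and over 110 miRNAs the replicate deviations of 2 groups correlated at -0.52 to 0.88, so they were not taken as pairing. With the replicate block no member's call or direction changed; miR-152 at 24 h differed between genotypes by -1.40 (limma adjusted p = 0.0189).

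Counts of calls over all tested miRNAs moved with the settings, and so did the background shares: from 130 to between 40 and 192 at 12 h and from 45 to between 16 and 192 at 24 h in the wild type. In the knockout they moved from 126 to between 48 and 183 and from 36 to between 15 and 190. The differences of responses moved from 15 to between 0 and 31 and from 12 to between 0 and 44, and the untreated comparison from 32 to between 0 and 56. At 12 h in the wild type 65 were higher and 65 lower, against 181 and 11 with normexp, 55 and 104 with quantile normalization and 59 and 85 with the percentile over all. At 24 h 7 were higher and 38 lower in the wild type, against 185 and 7 with normexp. Signal over background limits miR-148b, the treated values of miR-152 and miR-148a in the knockout at 12 h, and 2 arrays per group limit the rest.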

Other observations

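On all 12 arrays the software's gene total departed from the sum of its probe totals for many miRNAs beyond the miR-148/miR-152 family. The 2 agreed within 1% for 63 to 151 of the 120 to 222 detected mouse miRNAs of an array, and the gene total was over 1.5 times the sum for 44 to 65.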
